A study of Mus musculus with 24 samples.

Results

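Single m6A sites of mouse dorsal root ganglia (DRG) were summed per gene in 2 deposited lists, 1 from a library titled SNL (injury of the sciatic nerve, by the series text) and 1 from a library titled naive. A site entered the sum of a gene of the RNA-seq count table when it lay within that gene's span alone, on the gene's strand where the strand was known. Of 24421 genes in the table, 6082 (24.9%) had at least 1 site in either list. The sums were then set beside the expression level of the gene and its change 1 day after lesion.

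N6-methyladenosine (m6A) is the most abundant internal modification of messenger RNA. It is written by a methyltransferase complex around METTL3 and METTL14, removed by demethylases and bound by YTH-domain reader proteins that affect the decay and translation of the marked transcript. In sensory neurons of the DRG, a lesion of the peripheral axon starts a transcriptional programme of axon regrowth that includes the transcription factors Atf3, Jun and Sox11. The study addressed m6A in this response.

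All libraries came from L4/5 DRG of C57BL/6 mice, whose age and sex the labels leave out. The SNL and the naive site list each came from 1 wild-type library made by miCLIP, in which an anti-m6A antibody is crosslinked to RNA and leaves a mutation near the methylated base. The title of the SNL library states no day after lesion. RNA-seq was used in 3 wild-type libraries 1 day after lesion (SNLD1) and 3 wild-type naive libraries. In the same fit, 3 SNLD1 and 3 naive libraries of Mettl14cKO mice (genotype label Mettl14-/-) served only for the shared estimate of the spread, with no Cre driver named in the labels. MeRIP-seq, in which m6A-containing RNA is pulled down with the same antibody, comprised 3 pulldown (IP) and 2 input libraries of wild-type mice in SNLD1 and likewise in naive. One treatment label, shared by controls and lesioned mice alike, gives sham surgery or crush of the nerve, so it was not settled whether naive mice had been operated on.

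Wild-type RNA-seq libraries held between 6630850 and 12639160 counts, and MeRIP-seq libraries between 846785 and 19653733. The markers fixed for neurons, satellite glia and Schwann cells were present (the pan-neuronal and cytoskeletal list summed to between 20941 and 25508 CPM in SNLD1 and between 22172 and 25220 CPM in naive libraries), while the skeletal muscle list reached at most 21.2 CPM in SNLD1 and 11.6 CPM in naive. The libraries numbered 2 stood apart in both conditions. Ngp, a neutrophil granule protein, had 82.8, 538 and 98.0 CPM in the SNLD1 libraries and 95.3, 467 and 51.6 CPM in the naive libraries. The 10 neutrophil markers summed to between 423 and 1842 CPM in SNLD1 and between 269 and 1585 CPM in naive libraries, and the list held 2 sites in the SNL list and none in the naive list. Nothing in the labels ties each replicate to an animal of its own, and p-values thus cover the spread among these libraries, which may be technical.

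The SNL list held 18677 sites and the naive list 14446. A unique gene was found for 17968 sites (96.2%) of the SNL list and 13884 (96.1%) of the naive list, a ratio of 1.29, and the reads over these sites numbered 106220 in SNL and 78200 in naive, a ratio of 1.36. Among sites in a single gene of known strand, 99.3% lay on the strand of the gene in each list. The gene table gave no strand for 25.5% of matched genes, which accepted sites on either strand and held 20.8% of the assigned SNL sites and 20.7% of the naive sites. Sites were spread over whole gene spans. Of 14227 SNL and 11005 naive sites in genes of known strand, 32.3% and 32.6% lay within 2 kb of the 3′ end of the gene. This is the region where m6A is known to be frequent in mature transcripts. Within 2 kb of the 5′ end lay 18.9% of these SNL sites and 19.8% of these naive sites. Whether a site was exonic or intronic was not analysed here.

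The methylated base and its neighbours are given because they check the positions and show the sequence that both lists share. Each of the 18677 SNL sites and 14446 naive sites carried a pentamer of the m6A consensus DRACH, and all 18 possible pentamers occurred in both lists. The labels do not give the site caller, so this fit may be a condition of listing and is no evidence for single sites. In each line the capital letter marks the methylated A, and letters run 5′ to 3′ on the strand of the site.
Most frequent in both lists: ggAcc
Second in the SNL list: ggAca
Next in the SNL list: ggAct
Rarest in both lists: taAca
The pentamer ggAcc made up 15.9% of SNL sites (95% Clopper-Pearson interval 15.3 to 16.4) and 16.7% of naive sites (16.1 to 17.3), and taAca 0.423% of SNL sites and 0.471% of naive sites. The widest gap between the lists in any pentamer, SNL minus naive, was -0.843 points in ggAcc. All 3 pentamers that begin with ggAc together held 38.0% of SNL sites and 39.1% of naive sites.

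Longer context could be read only where a site fell into a RefSeq promoter window around a gene start (GRCm38.p6). There, the deposited pentamer stood at the deposited base in 236 of 236 pairs of SNL site and window and 176 of 176 naive pairs. This match ties the lists to that build. A gene can have several such windows, so some sites were counted more than once. The following 21-base stretches belong to genes described further on and are shown with the A in capitals.
Cnst, chr1:179546512, plus strand: gccgcgggagAcccgagccgg
Bdnf, chr2:109692464, plus strand: cgaggagaggActgctctcgc
Asic2, chr11:81152872, minus strand: tgcaggggggActcatctcag
The Cnst base lay 17 bases before the start that its window surrounds, but inside the gene's span, which begins at 179546444. It had 13 reads with 2 mutated in SNL and 12 reads with 2 mutated in naive. The Asic2 base lay at position 32 after such a start, inside a span that begins at 81968396 on the minus strand. It had 7 reads with 1 mutated in SNL and 10 reads with 1 mutated in naive. The Bdnf base, at position 29 after the start that its window surrounds, was listed with 3 reads and 1 mutated read in SNL and was not listed in naive.

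In the SNL list 5046 genes (20.7% of the table, interval 20.2 to 21.2) had a site, and in the naive list 4350 genes (17.8%, interval 17.3 to 18.3). These intervals, and all others on sites, cover counting error only, since each condition had 1 library and reads amplified by PCR are not independent molecules. Both lists marked 3314 genes. A further 1732 genes had sites only in the SNL list and 1036 only in the naive list, and of these 64.8% and 73.7% held a single site. The median gene with a site had 2 sites in SNL and 2 in naive, with means of 3.56 and 3.19. At least 10 sites were held by 375 genes in SNL and 246 in naive, and the 100 genes with the most sites took 14.9% of all assigned SNL sites and 16.5% of naive sites.

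**Figure D1:**
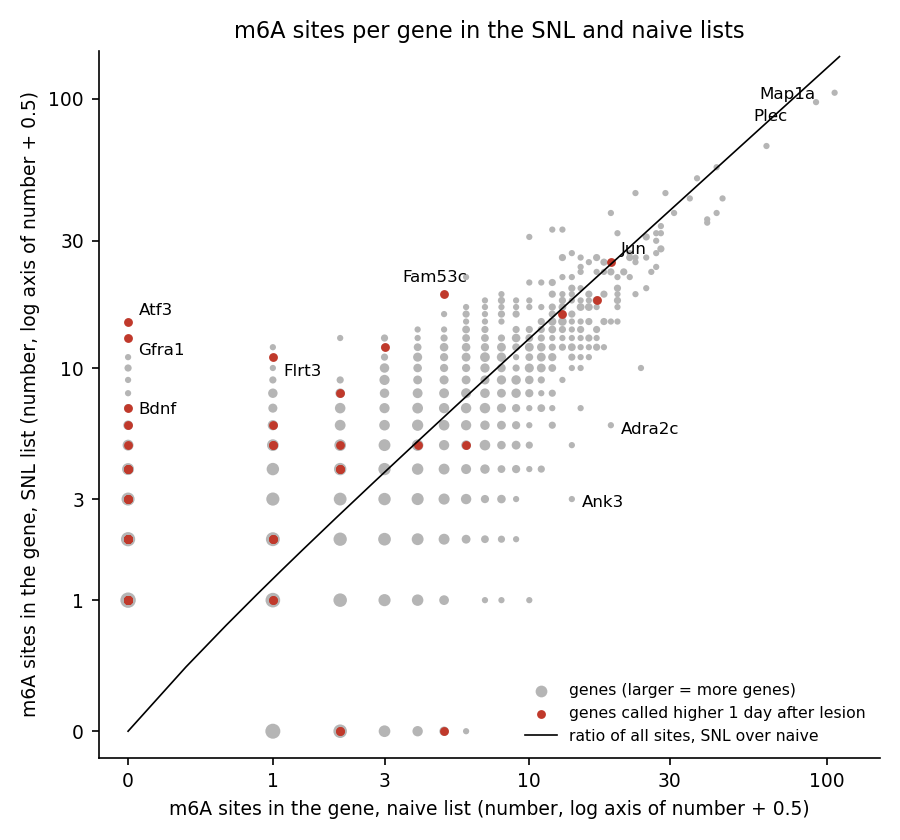
Number of m6A sites of each gene in the SNL list (vertical) against the naive list (horizontal), both on a log axis of the number plus 0.5, over the 6082 genes with a site. Grey points grow with the number of genes at that position, red points are the 62 genes with a site among those called higher 1 day after lesion, and the line marks the ratio of all sites, 1.29. Most red points lie above the line, and Atf3 and Gfra1 lie at 0 in the naive list.

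Genes of the neuronal cytoskeleton were among those with the most sites over both lists. Map1a, a microtubule-associated protein of axons and dendrites, held 105 sites in SNL and 106 in naive, the highest number in each list. Plec, the cytoskeletal linker plectin, held 97 and 92, and Map1b, a microtubule-associated protein known for its role in growing axons, 67 and 63. Next over both lists came Prune2 with 56 sites in SNL and 43 in naive, and Ahnak, a very large scaffold protein, with 51 and 37. Phf24 had 43 SNL and 45 naive sites, Akap12, an anchoring protein of protein kinase A, 38 and 43, and Nfe2l1, a transcription factor of proteasome genes, 43 and 35. Spock2, an extracellular proteoglycan, had 36 SNL and 40 naive sites, and Apc2, a neuronal homologue of the Apc tumour suppressor, 35 and 40. Their expression ranged widely: Map1b averaged 3149 ± 1234 CPM in SNLD1 and 3344 ± 1177 CPM in naive libraries, and Apc2 averaged 3.91 ± 1.60 CPM in SNLD1 and 4.68 ± 2.06 CPM in naive (SD, n = 3 each).

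Across the 6082 genes with a site, Spearman's rho between sites in SNL and sites in naive was 0.454, and among the 3314 genes in both lists it was 0.654. With only sites of at least 3 mutated reads, the coefficient over genes with a site was -0.0416. Genes absent from both lists are left out, which lowers rho when most genes hold few sites. The filtered value therefore cannot show whether the lists disagree. These coefficients describe genes of the same 2 libraries, which are not independent replicates. Agreement at single bases was lower: 3707 bases were listed in both, which is 20.6% of the assigned SNL sites and 26.7% of the naive sites. Of the 3314 genes in both lists, 1586 shared at least 1 base and 1728 shared none. In Map1a 60 bases were shared, in Plec 50 and in Map1b 36. The Map1a base with the most mutated reads over both lists, chr2:121306245 on the plus strand with the pentamer ggAcc, had 21 reads with 4 mutated in SNL and 25 reads with 4 mutated in naive.

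Bases in both lists were better covered than the rest. Their median was 8 reads in SNL and 6 in naive, while bases in 1 list only had a median of 4 reads in SNL and 3 in naive. Most sites rested on few reads: 89.7% of SNL sites and 90.2% of naive sites had a single mutated read, and 25.0% and 27.9% had only 2 reads. With so few reads, the absence of a base from a list does not show that it was unmethylated.

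The mutated share, mutated reads over all reads at the sites of a list, was 19.1% (interval 18.9 to 19.4) in SNL and 20.02% (19.7 to 20.3) in naive. It is not a methylation level, since a base had to carry a mutated read to be listed and no listed base exceeded 50%. Among 213 genes with 10 or more sites in each list, the median mutated share was 15.4% in SNL and 16.8% in naive, with 76 genes higher and 136 lower in SNL. At the 3707 shared bases, reads numbered 36193 in SNL and 31620 in naive (ratio 1.14), and mutated reads 4876 in SNL and 4788 in naive.

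Genes of higher expression more often had a site. Expression is given as CPM, counts scaled to a library total, averaged over the 3 wild-type libraries of the same condition. Under 1 CPM, 3.39% of genes had an SNL site and 2.84% a naive site. Between 5 and 20 CPM these shares were 33.5% in SNL and 29.1% in naive, and over 100 CPM they were 52.4% and 44.6%. The SNL share was the higher one in each of the 5 bins. Among genes that had a site, the mean number of sites was larger in each higher bin, at 2.80 SNL sites and 2.56 naive sites under 1 CPM, 3.52 and 3.15 between 5 and 20 CPM, and 4.09 and 3.61 over 100 CPM. Over tested genes with a site, Spearman's rho between sites and CPM was 0.04 in SNL (4701 genes) and 0.05 in naive (4044 genes). CPM is not per length, so a long and a short transcript of equal CPM differ in copy number.

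**Figure D2:**
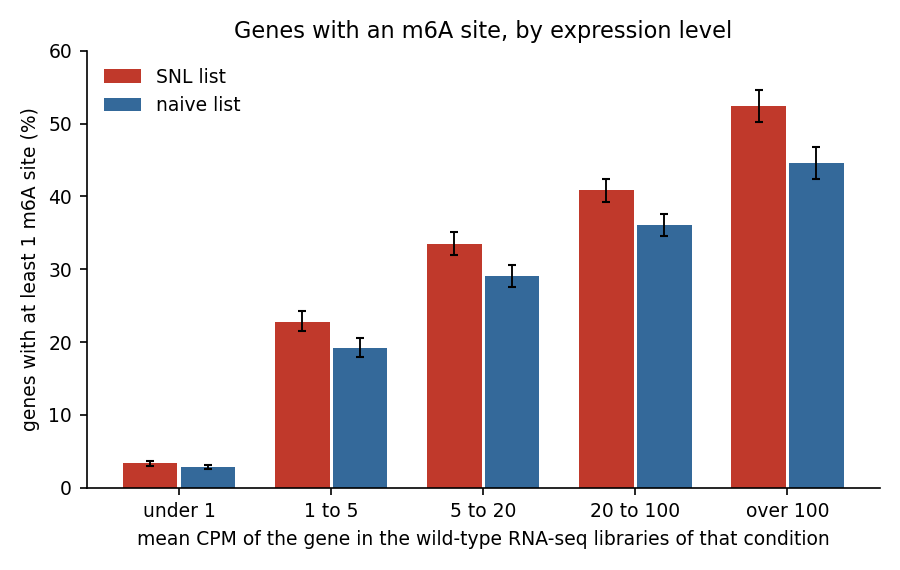
Share of genes with at least 1 m6A site (%) in the SNL list (red, left) and the naive list (blue, right), by mean CPM of the gene in the wild-type libraries of that condition. Error bars are 95% Clopper-Pearson intervals, which cover counting error only. The share in SNL goes from 3.39% of genes under 1 CPM up to 52.4% over 100 CPM, and in naive from 2.84% up to 44.6%.

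Some genes with many sites had almost no RNA-seq counts. Of 837 genes with 10 or more sites over both lists, 31 (3.704%) averaged under 1 CPM in both SNLD1 and naive libraries. Scaf1 had 18 SNL and 17 naive sites at 0.917 CPM in SNLD1 and 0.624 CPM in naive, and Sptbn4, a spectrin of the axon initial segment and nodes of Ranvier, 12 and 15 sites at 0.260 CPM in SNLD1 and 0.224 CPM in naive. Lmtk3 had 2 SNL and 8 naive sites and no count in any of the 6 wild-type libraries. Of the 31 genes, 22 reached 1 CPM or more in the mean of the MeRIP-seq inputs.

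Gene groups were described by the sites their members carried. Of 30 pan-neuronal and cytoskeletal genes, each had a site in at least 1 list, with 590 sites in SNL and 512 in naive. Besides Map1a and Map1b, the spectrin Sptbn1 had 45 SNL and 29 naive sites and the cytoskeletal linker Dst 45 and 23. Tubb3, neuronal beta-tubulin, had 19 SNL and 18 naive sites, of which 15 bases were shared. Of 57 ribosomal protein genes, 22 had a site, beside 5636 of all 13291 tested genes. The 57 genes held 24 sites in SNL and 17 in naive. They summed to between 13053 and 16216 CPM in SNLD1 and between 12386 and 15102 CPM in naive libraries. Numbers of sites were not scaled by transcript length, which differs among these groups. The 32 oxidative phosphorylation genes, of similar summed CPM, held 39 SNL and 37 naive sites, 11 and 10 of them in Atp5b, a subunit of ATP synthase.

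Sensory channels and receptors were marked in 28 of 37 genes, with 184 sites in SNL and 125 in naive. Of all 13291 tested genes 5636 had a site, for comparison with this and the following lists. Scn10a, the sodium channel Nav1.8 of nociceptors, had 26 SNL and 17 naive sites. Ret, a receptor for glial cell line-derived ligands, had 18 and 9, the acid-sensing channel Asic2 11 and 11, and the mechanosensitive channel Piezo2 10 and 12. Glial transcripts were marked as well. Mbp, a major myelin protein, had 26 SNL and 23 naive sites, and Prx, periaxin of myelinating Schwann cells, 22 and 14. Apoe, an apolipoprotein of satellite glia and macrophages, had 11 SNL and 9 naive sites. The satellite glia list held 31 SNL and 26 naive sites over 12 genes. Of its members, Sox10 had 5 SNL and 7 naive sites, Glul 4 and 2, and Sparcl1 3 and 3. Gfap, an intermediate filament of reactive glia, had 2 SNL sites and none in naive. Of the 15 macrophage markers 5 had a site (C1qa, C1qb, C1qc, Lyz2 and Tyrobp), with 9 sites in SNL and 4 in naive. Of the 9 fibroblast markers 6 had a site, with 7 in SNL and 16 in naive, and the collagen gene Col3a1 alone had 2 and 7. The 11 endothelial and mural markers held 5 SNL and 5 naive sites. Among 30 transcription regulators of long coding sequence, 23 had a site, with 89 in SNL and 67 in naive, and the histone methyltransferase Kmt2d had 13 and 5. Since whole ganglia were used, fewer cells of a type and less RNA per cell cannot be told apart.

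Of 22 m6A machinery genes in the table, 11 had a site, beside 5636 of all 13291 tested genes. The machinery genes held 29 sites in SNL and 20 in naive. Rbm15b, a subunit of the methyltransferase complex, had 13 SNL and 7 naive sites, and its paralogue Rbm15 had 3 SNL sites and none in naive. Wtap and Zc3h13, other subunits, had none in SNL and 2 each in naive. The demethylase Fto had 1 SNL and 3 naive sites, and Alkbh5 had 2 and 1. Among readers, Ythdf2 had 3 SNL sites and Ythdf3 had 1, both with none in naive, and Ythdf1 had none in SNL and 1 in naive. The 2 nuclear ribonucleoproteins Hnrnpa2b1 and Hnrnpc had 4 and 2 sites in SNL and 2 and 2 in naive.

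One day after lesion, 126 of 13291 tested genes were called higher in wild-type DRG and 10 lower (edgeR quasi-likelihood test, Benjamini-Hochberg adjusted p under 0.05), which is 0.948% and 0.0752% of tested genes. Of the 126 genes called higher, 59 had a site in SNL and 24 in naive, beside 4701 and 4044 of all 13291 tested genes. Together the 126 genes held 268 sites in SNL and 95 in naive, a ratio of 2.82 against 1.29 over all genes. Their reads numbered 2197 in SNL and 579 in naive. Of the 62 with a site, 56 had more sites in SNL. Dclk3, Stat2, Abca1 and Fndc4 had more in naive, and Slc10a6 and Zfp655 had 1 site in each list; apart from Dclk3, these were chosen after their values were seen. More sites in SNL were thus found in 90.3% of them, compared with 54.4% of all 5636 tested genes with a site. The 10 genes called lower held 11 sites in SNL and 16 in naive. The number called higher was 60 with naive library 1 left out, 63 with naive library 3 left out and 74 when SNLD1 library 3 was dropped, and the ratio of sites stayed between 3.02 and 3.63 over the fits that left out 1 wild-type library.

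Among genes with sites in the SNL list only, 38 of 1592 tested genes (2.39%) were called higher. Among genes with sites in the naive list only 3 of 935 (0.321%) were, among genes with sites in both lists 21 of 3109 (0.675%), and among genes with none 64 of 7655 (0.836%). The median log2 fold change of SNLD1 over naive was close to 0 in each class, at 0.005 in SNL-only genes, -0.05 in naive-only genes, -0.05 in genes of both lists and -0.001 in genes of neither. By number of sites over both lists, the median log2 fold change was -0.001 with 0 sites, -0.03 with 2 to 4 sites, -0.06 with 10 to 19 sites and -0.09 with 20 or more, against -0.01 over all tested genes.

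**Figure D3:**
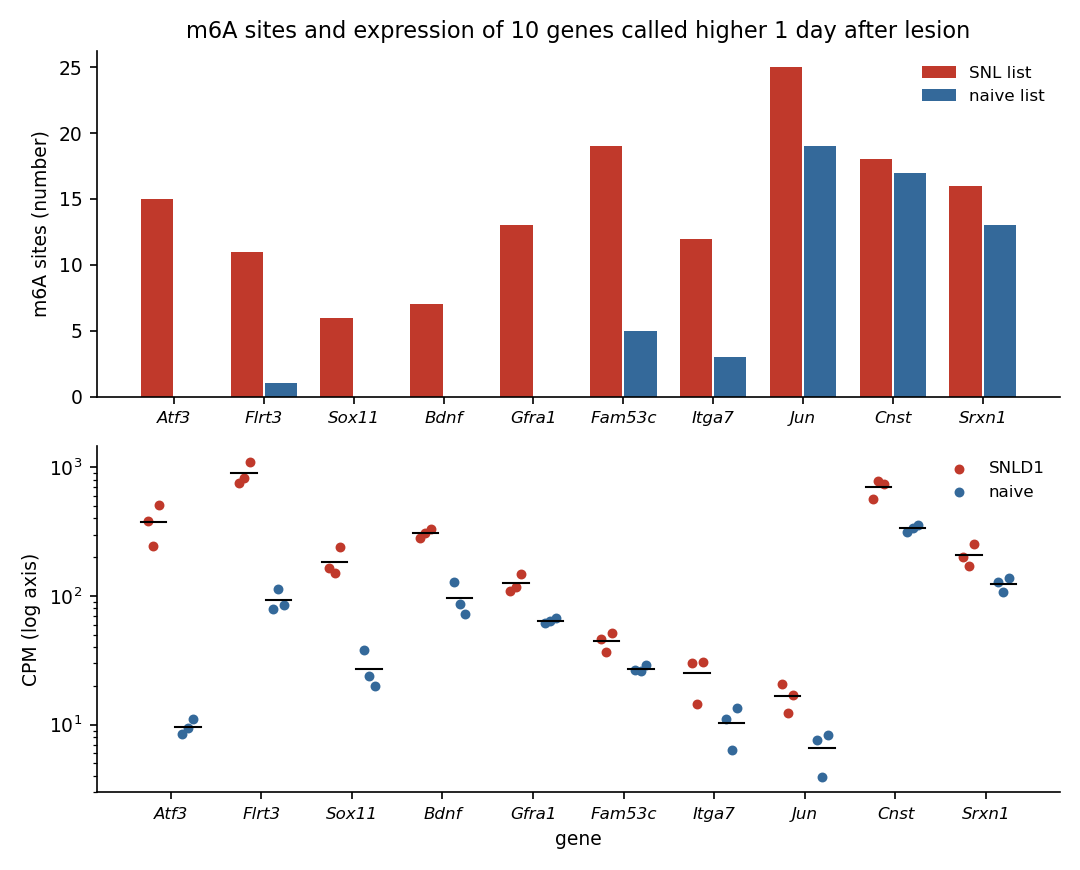
Number of m6A sites in the SNL list (red, left) and the naive list (blue, right) in the upper panel, and CPM (log axis) of each wild-type RNA-seq library 1 day after lesion (red, left) and in naive mice (blue, right) in the lower panel, for 10 genes called higher after lesion. Points are single libraries and black lines their means (n = 3 per group). Atf3, Sox11, Bdnf and Gfra1 have no naive site, while Jun, Cnst and Srxn1 have nearly as many as in SNL.

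Atf3, a stress-induced transcription factor and the classical marker of injured sensory neurons, had 380, 243 and 505 CPM in SNLD1 libraries, against 8.52, 9.41 and 11.1 CPM in naive libraries. The groups did not overlap, and the log2 fold change was 5.27 ± 0.27 (SE, edgeR adjusted p = 2.49e-09). It held 15 sites with 194 reads in SNL and was listed with none in naive. Its best covered base, chr1:191171133 on the minus strand (ggAcc), had 22 reads with 3 mutated.

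Flrt3, a membrane protein that binds fibroblast growth factor receptors and Unc5 guidance receptors, had 760, 830 and 1095 CPM in SNLD1, against 78.7, 114 and 85.6 CPM in naive. Its log2 fold change was 3.27 ± 0.19 (SE, edgeR adjusted p = 1.06e-08), and it held 11 sites in SNL and 1 in naive. The single naive base, chr2:140660667 on the minus strand (ggAcc), had 11 reads with 1 mutated in SNL and 2 reads with 1 mutated in naive.

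Sox11, a transcription factor of developing and regrowing neurons, had 166, 150 and 239 CPM in SNLD1, against 37.9, 23.99 and 20.005 CPM in naive (log2 fold change 2.76 ± 0.26, edgeR adjusted p = 4.68e-06). It held 6 sites in SNL and none in naive. Bdnf, a neurotrophin, had 280, 309 and 333 CPM in SNLD1, against 129, 87.4 and 72.3 CPM in naive (log2 fold change 1.68 ± 0.20, edgeR adjusted p = 7.32e-05). It held 7 sites with 62 reads in SNL and none in naive. Gfra1, the co-receptor of glial cell line-derived neurotrophic factor, had 110, 117 and 149 CPM in SNLD1, against 61.2, 63.5 and 67.9 CPM in naive (log2 fold change 0.97 ± 0.18, edgeR adjusted p = 0.00937). It held 13 sites in SNL and none in naive. The call of Gfra1 was lost without naive library 1 or SNLD1 library 3, with an adjusted p of at most 0.0929.

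Other genes called higher had many sites in both lists. Jun, a transcription factor needed for axon regrowth, had 20.7, 12.4 and 17.1 CPM in SNLD1, against 7.55, 3.95 and 8.37 CPM in naive (log2 fold change 1.30 ± 0.28, edgeR adjusted p = 0.0298). It held 25 sites in SNL and 19 in naive, so that its share of sites was nearly the same in the lists, but its reads numbered 536 in SNL and 204 in naive. Srxn1, sulfiredoxin of the antioxidant response, had 202, 172 and 252 CPM in SNLD1, against 129, 108 and 138 CPM in naive, and held 16 sites with 248 reads in SNL and 13 sites with 140 reads in naive. Cnst, consortin, a protein of connexin trafficking, had 564, 781 and 744 CPM in SNLD1, against 314, 340 and 359 CPM in naive, and held 18 sites with 144 reads in SNL and 17 sites with 84 reads in naive. Fam53c had 19 sites in SNL and 5 in naive, the integrin Itga7 12 and 3, and the small GTPase Rhoq 8 and 2. The kinase Dclk3 had 5 in SNL and 6 in naive. In Rhoq the log2 ratio of shares was 1.39, but -0.29 with at least 3 mutated reads per site. Under that filter Rhoq kept only the base chr17:86963467, with 4 mutated reads in SNL and 3 in naive. With so few sites left, -0.29 is no check of the value over all sites. The calls of Jun, Srxn1, Fam53c and Itga7 were each lost in 6 of 12 alternative fits, with adjusted p reaching 0.296 in Fam53c.

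Reads were also compared at the bases listed in both conditions, so that the number of bases was the same. Such a base needed a mutated read in each list, which ties the mutated reads to the number of bases. At 14 bases of Jun, reads numbered 381 in SNL and 163 in naive, a ratio of 2.34, while mutated reads numbered 19 in SNL and 17 in naive. The mutated share at these bases was therefore 4.99% in SNL and 10.4% in naive. At 8 bases of Srxn1, reads numbered 178 in SNL and 98 in naive, with 12 mutated in SNL and 14 in naive. Over the 44 shared bases of the 15 called genes that had any, reads numbered 745 in SNL and 350 in naive (ratio 2.13), and mutated reads 62 in SNL and 56 in naive, or 8.32% in SNL and 16.0% in naive. Over the 3498 shared bases of genes tested and not called, the ratio of reads was 1.14 and the mutated shares were 13.4% in SNL and 15.0% in naive. Since a base is listed from a single mutated read on, these shares are no measure of methylation per transcript.

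Of the 10 genes called lower, 5 had a site, beside 5636 of all 13291 tested genes. Lrrn1, a leucine-rich repeat membrane protein, had 104, 111 and 98.3 CPM in SNLD1, against 151, 148 and 166 CPM in naive (log2 fold change -0.57 ± 0.13, edgeR adjusted p = 0.0491), and held 7 sites in SNL and 9 in naive. Shox2, a homeobox transcription factor, held 3 and 4, Smad9, a mediator of bone morphogenetic protein signalling, 0 and 2, Fam13a 0 and 1, and the kinase Nim1k 1 and 0. Fgf9, Ntf3, Pcdh18, 1190002N15Rik and 8430408G22Rik had no site in either list. Each of these 10 calls was lost under at least 3 of 12 alternative fits, and without naive library 1 a single gene was called lower.

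The regeneration-associated list, chosen on the basis of known injury responses, comprised 45 genes of the table. Sites were found in 34 of them in SNL and 23 in naive, beside 4701 and 4044 of all 13291 tested genes. The list held 326 sites in SNL and 202 in naive, a ratio of 1.61. Of 41 tested members 17 were called higher and none lower, beside 0.948% and 0.0752% of all tested genes, and the median log2 fold change was 0.82, beside -0.01 over all tested genes. This list holds genes known for such a response, so its direction is no independent result. Of the 17 called members, Ankrd1 and the cytokine Il6 had no site, and each of the rest had more sites in SNL. Among those with few sites were Gadd45a, a DNA damage response protein, with 4 sites and 51 reads in SNL and 2 sites and 4 reads in naive, and a mean of 58.9 CPM in SNLD1 against 6.61 CPM in naive. Klf6, a zinc finger transcription factor, had 5 SNL and 2 naive sites at 302 CPM in SNLD1 and 135 CPM in naive. Socs3, an inhibitor of cytokine signalling, had 5 and 1 at 4.59 CPM in SNLD1 and 0.828 CPM in naive. No naive site was listed for the neuropeptide gene Adcyap1 with 3 SNL sites, the stathmin Stmn4 with 4, the receptor gene Gpr151 with 2, the urokinase receptor Plaur with 2, the metalloproteinase Mmp16 with 2, the signal mediator Smad1 with 2 and the receptor Tnfrsf12a with 1. Their mean naive levels ranged from 2.93 CPM in Stmn4 to 32.0 CPM in Adcyap1.

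Members without a called change also carried sites. Ngfr, the low-affinity neurotrophin receptor, had 38 SNL and 31 naive sites without a called change (log2 fold change -0.38 ± 0.25, edgeR adjusted p = 0.876). Gap43, a growth cone protein, had 4 SNL and 2 naive sites at 606, 496 and 613 CPM in SNLD1 and 518, 504 and 438 CPM in naive (edgeR adjusted p = 0.861). Sprr1a, another classical injury gene, had no site in either list and under 4 CPM in each library. The immediate-early list had sites in 11 of 25 genes, beside 5636 of all 13291 tested genes, with 61 in SNL and 35 in naive. Of its 17 tested members 2 were called higher, beside 0.948% of all tested genes. These were Jun and Fosl2, a partner of Jun in the AP-1 complex with 4 SNL sites and no naive site. Besides Jun, its members with the most sites were Jund with 12 SNL and 8 naive sites and Junb with 5 and 2.

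To compare single genes between lists of unequal size, the share of all assigned sites that fell in a gene was set against its share in the other list. Among the 837 genes with 10 or more sites over both lists, 65 (7.77%) were past 2-fold higher in SNL and 55 (6.57%) past 2-fold lower, with 0.5 site added to each count. With only sites of at least 3 mutated reads no gene was past 2-fold in either direction, and with only sites of at least 20 reads 1 was past it higher and 0 lower. Few sites remain under these filters, since 89.7% of SNL and 90.2% of naive sites had a single mutated read and the median site had 4 reads. The filtered counts are therefore no check of the 65 and 55 genes. With 1 library per condition all of these counts are descriptions without a test. Just past the 2-fold line on the higher side stood Gcnt2 with 14 SNL and 5 naive sites, and just within it Sars with 11 and 4. On the lower side, Phlda3 with 5 and 8 was just past it and Myh14 with 7 and 11 just within.

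The 10 genes furthest toward SNL were Atf3, Gfra1, Flrt3 and 7 others. Itpkc, an inositol trisphosphate kinase, held 11 sites in SNL and none in naive, with 8.28, 4.35 and 10.3 CPM in SNLD1 and 2.03, 1.499 and 4.03 CPM in naive (edgeR adjusted p = 0.0749). Gadd45g, a stress-response protein, held 10 and none, with 25.8, 5.72 and 19.9 CPM in SNLD1 and 5.81, 1.09 and 5.55 CPM in naive (edgeR adjusted p = 0.0594). The groups did not overlap in Itpkc, and in Gadd45g SNLD1 library 2 lay just under the highest naive library. Zdhhc8, a palmitoyltransferase, held 10 sites in SNL and none in naive at 1.51 CPM in SNLD1 and 1.59 CPM in naive. Celsr3, a cadherin of axon guidance, held 12 SNL and 1 naive sites, and Nfasc, neurofascin of the node of Ranvier, 10 and 1. Ddx23 and Nrip1 held 9 sites each in SNL and 1 each in naive.

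Of the 10 genes furthest toward naive, Lmtk3 was not tested for expression and the others were not called after lesion. Zadh2 held 1 site in SNL and 10 in naive, Ank3, ankyrin G of the axon initial segment and node, 3 and 14, and Mlst8, a subunit of the mTOR complexes, 2 and 9. Adra2c, an alpha2 adrenergic receptor, held 6 SNL and 19 naive sites and had 0.613, 0.343 and 0.732 CPM in SNLD1, against 2.13, 0.818 and 1.98 CPM in naive (log2 fold change -1.57 ± 0.52, edgeR adjusted p = 0.275). Its base chr5:35281394 on the plus strand (agAca) had 10 reads with 2 mutated in SNL and 11 reads with 1 mutated in naive. Atxn7l3 held 5 SNL and 14 naive sites. Its log2 ratio of shares, SNL over naive, was -1.77, but 1.29 with at least 3 mutated reads per site. Its base chr11:102291471 on the minus strand had 13 reads with 3 mutated in SNL and 22 reads with 2 mutated in naive. So few sites remain under this filter that 1.29 is no check of the value over all sites. Ankrd40 held 4 and 11, Usp20 4 and 11, Rnf112 2 and 8, and Lmtk3 2 and 8.

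Genes past 2-fold higher in SNL included more genes called higher after lesion. Of 61 tested genes past 2-fold higher, 6 were called higher (9.84%), against 10 of the 802 tested genes with 10 or more sites (1.25%) and none of 51 past 2-fold lower. The median log2 fold change of expression was 0.07 in genes past 2-fold higher, with 41 of 61 above 0, and -0.13 in genes past 2-fold lower, with 12 of 51 above 0, beside -0.07 over all 802. Spearman's rho between the log2 ratio of site shares and the log2 fold change of expression was 0.239 over the 802 genes and 0.225 over the 791 of them that were not called. This is a description across genes of the same libraries, and the SNL list and the SNLD1 libraries may differ in the day after lesion.

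**Figure D4:**
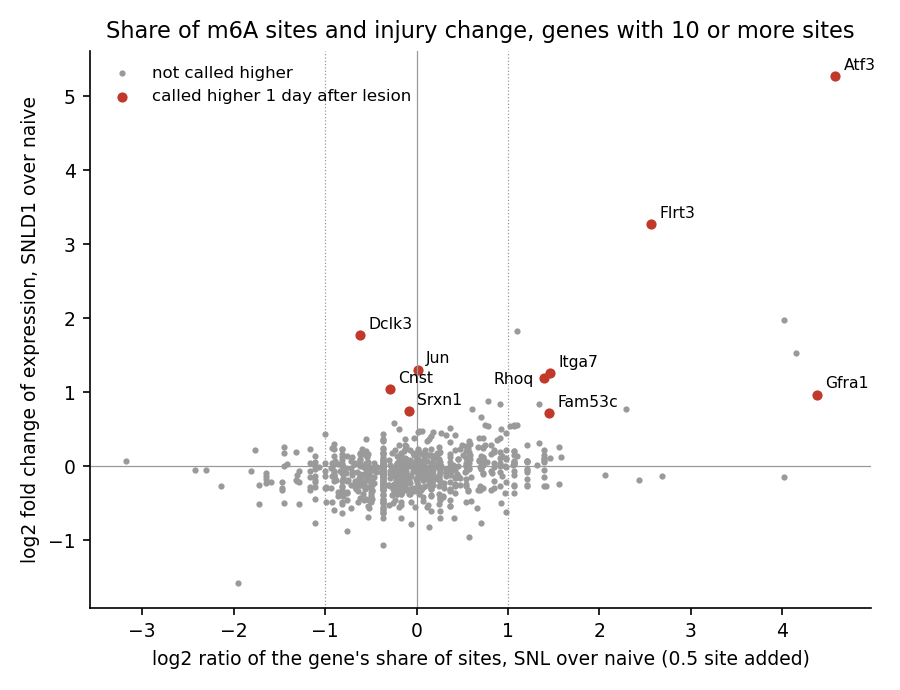
Log2 fold change of expression, SNLD1 over naive, against the log2 ratio of the gene's share of m6A sites, SNL over naive with 0.5 site added, for the 802 tested genes with 10 or more sites. Red points are genes called higher 1 day after lesion, and dotted lines mark a 2-fold ratio. Of the 10 called genes, 6 lie right of the upper line, and Jun, Cnst, Srxn1 and Dclk3 lie within the lines.

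MeRIP-seq gave another readout of m6A in the same tissue. No gene passed the test in IP over input (0% of 14705 tested genes in SNLD1 and in naive) nor in its change with lesion by edgeR's quasi-likelihood test, with 608, 915 and 30 genes at an unadjusted p under 0.05. With the replicate number as a block, 44 genes were called higher and 892 lower in SNLD1 and 48 higher and 1030 lower in naive, although IP and input of the same number did not deviate together. By DESeq2 the counts of called genes were 0 in SNLD1, 5 in naive and 0 for the change. Depth was uneven, with 927807 counts in SNLD1 input 1 and 846785 in naive IP 2, the shallowest of each kind. The median log2 ratio of IP over input was higher in genes with more sites: in SNLD1 it was -0.06 in genes with no site, 0.30 with 2 to 4 sites and 0.71 with 20 or more, and in naive -0.14, 0.26 and 0.87. The change of IP over input with lesion was set beside the lists as well. Spearman's rho between the log2 ratio of site shares and the change of IP over input was -0.02 over 835 genes. The change had a wide error in single genes, with an SE of 1.26 in Map1a and 1.40 in Atf3 on the log2 scale. This rho therefore cannot show whether the lists and MeRIP-seq disagree.

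The steepness differed among IP libraries. From 0 sites to 20 or more, the median of log2(CPM + 1) in IP over the mean input went from -0.13 to 0.77 in SNLD1 IP library 1, from -0.76 to 0.51 in library 2 and from -0.11 to 0.10 in library 3. In naive the same medians went from -0.18 to 1.10 in library 1, from -0.58 to 0.44 in library 2 and from -0.27 to 0.27 in library 3. The highest bin lay above the bin without sites in each of the 6 IP libraries. In SNLD1 IP library 3 the rise was not steady, with a median of 0.16 at 10 to 19 sites and 0.10 at 20 or more.

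**Figure D5:**
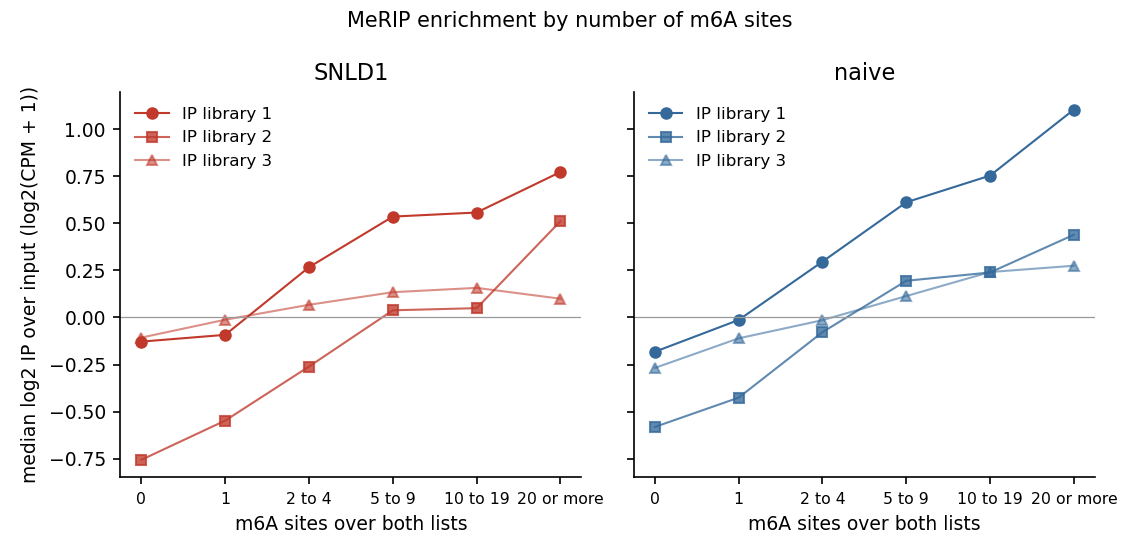
Median log2 ratio of IP over input, computed as log2(CPM + 1) in 1 IP library minus the mean of the inputs of that condition, by number of m6A sites of the gene over both lists, for the 3 IP libraries of SNLD1 (left) and of naive (right). Each line is 1 IP library. Genes with 20 or more sites lie between 0.10 and 0.77 in SNLD1 and between 0.27 and 1.10 in naive, above genes with no site in each library.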

How the data were processed

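The authors deposited counts per gene symbol for RNA-seq and MeRIP-seq, and miCLIP lists in which each site has a score of unit other that equalled mutated reads over reads to within 1e-05. Per the submitters' processing notes, Trimmomatic, STAR, DESeq2 and the mm10 build were used. Of their versions, the counter and the site caller, the labels give none. Per the labels, RNA was poly(A)-selected and libraries followed Smart-seq2.

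Differences in counts were tested with edgeR 4.0.16 under R 4.3.3 (filterByExpr, TMM, glmQLFit and glmQLFTest), in one fit of 12 RNA-seq libraries in 4 groups and one of 10 MeRIP-seq libraries, with Benjamini-Hochberg adjustment over all tested genes. The steps were tested on simulated data. CPM are TMM-scaled. DESeq2 1.42.0 was an alternative. Of 24421 symbols, 23204 matched the GRCm38.p6 gene table by symbol and 1068 by synonym. Site positions are 1-based. Sites in several genes (309 SNL, 256 naive) were left out of the sums. Intervals are 95% Clopper-Pearson. Python 3.11.15 with pandas 2.3.3 and scipy 1.17.1 was used for sites, and matplotlib 3.10.9 for figures.

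IP libraries of the same number in SNLD1 and naive deviated together (r of 0.68, 0.47 and 0.74). No label states what libraries of the same number share, and libraries of unequal number were not compared, so a pairing is not settled. The fit of the change with the number as a block called 0 genes as well. IP and input of the same number did not deviate together (r from -0.29 to -0.02).

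Named were the 10 genes with most sites, the 10 furthest in share of sites in each direction, the 10 called higher and 10 lower with most sites, up to 4 members of each list with most sites, the m6A machinery with a site, and Atf3, Sox11, Jun, Gap43, Sprr1a, Bdnf and Flrt3. Scaf1, Sptbn4, Gcnt2, Sars, Phlda3 and Myh14 were picked with their values in view. So were Stat2, Abca1, Fndc4, Slc10a6, Zfp655, Fosl2, Gfap, the macrophage markers and the called regeneration-associated genes with few sites. Some genes that the rule names are not reported here. The members, lists and rules were chosen with earlier results of these data known.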

Additional observations from a re-analysis of the deposited data

Results flagged for a closer look

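Outside the sums per gene, 400 sites of the SNL list (2.14%) and 306 of the naive list (2.12%) lay in no gene span of the RNA-seq table on their strand. Of these, 100 in SNL and 76 in naive lay in a span on the opposite strand only, and 300 in SNL and 230 in naive in no span at all. They are pointed out because they form a signal that the comparisons per gene do not use.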

How the results depend on the processing

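Results on sites were recomputed with strand ignored, with sites in several genes counted for each, with at least 3 mutated reads and with at least 20 reads. The first 2 kept each count within 1.5 times. With at least 3 mutated reads, genes with a site numbered 238 in SNL and 194 in naive, the ratio of all sites was 1.22, rho between the lists reversed to -0.0416, the mutated shares were 21.2% in SNL and 21.4% in naive, 0 genes were past 2-fold in either direction, and 9 of the genes called higher had an SNL site and 4 a naive site; the log2 share ratio turned to 1.29 in Atxn7l3 and -0.29 in Rhoq. With at least 20 reads, these values were 159 and 114 genes, a ratio of 1.35, shares of 6.63% and 6.87%, 1 gene past 2-fold higher and 0 lower, 5 and 2 called genes with a site, and a ratio of sites in called genes of 6.67. Fewer sites remain in both settings by construction. Hence rho, the counts past 2-fold and the ratios of Atxn7l3 and Rhoq are no check of the values over all sites. A minimum of 5 sites put 307 genes past 2-fold higher and 247 lower, and a minimum of 20 put 6 and 3.

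Genes called higher and lower after lesion numbered 190 and 21 by DESeq2, 232 and 24 without a filter, 96 and 1 with the 6 wild-type libraries only, and 107 and 7 without both libraries of number 2. Leaving out 1 library gave 60 to 130 higher and 1 to 14 lower. With the replicate number as a block, 145 and 10 were called; the wild-type RNA-seq libraries share only a number (r of -0.02, 0.58 and 0.06). The ratio of sites in genes called higher was 3.02 to 3.63 when 1 library was left out, and between 2.70 and 3.38 under the other alternatives except at least 20 reads. IP over input with the replicate block called 44 genes higher and 892 lower in SNLD1, and 48 higher and 1030 lower in naive. Without a filter it called 4 higher and 2 lower in SNLD1 and 3 higher and 6 lower in naive, and DESeq2 called 2 higher and 3 lower in naive. Leaving out 1 MeRIP-seq library called 0 in each. For named genes, 177 of the alternative injury values kept their call and 87 lost it, with no change of direction. Scaling CPM by coding length was not run. The cause of these differences was not tested. The alternatives without both libraries of number 2, without genes called after lesion (59 past 2-fold higher, 55 lower), and with called genes from other fits were chosen after seeing the data.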
